A study of Mus musculus with 15 samples.

Results

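Neural stem and progenitor cells lacking Kat6b were compared with wild type cells of the same C57BL/6 strain across all named genes. The comparison used 7 of the 15 libraries of the series, chosen by genotype and strain: 4 Kat6b-/- libraries (knockout 1 to 4) and 3 wild type libraries (wild type 1, 2 and 4). Of 26263 named genes in the files, 15261 had enough counts to be tested. The cells came from the dorsal telencephalon at E12.5 (embryonic day) and grew as free-floating neurospheres in medium with EGF, FGF, insulin, putrescine and apo-transferrin, which both genotypes shared. Each library was labelled with its own litter and embryo number: wild type 1 came from litter 844, wild type 2 and knockout 1 and 2 from litter 843, and wild type 4 and knockout 3 and 4 from litter 929. The labels do not state which part of Kat6b was deleted, and cultured spheres are a selected population rather than the tissue. The other 8 libraries, from cells overexpressing Kat6b and their wild type controls on an FVBxBALB/c mixed background, entered only the shared estimate of spread and the few comparisons named below.

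KAT6B is a histone acetyltransferase of the MYST family. It works in a complex with BRPF scaffold proteins, acetylates histone H3 and is known as a regulator of forebrain development and of neural progenitor growth. Radial glia, the stem cells from which neurospheres are grown, import amino acids, glucose and iron, respond to growth factors through surface receptors, secrete lipoproteins and angiogenic peptides, and express many noncoding transcripts. The comparison asked which RNAs change in level when KAT6B is lost, and the account below follows transporters, receptors, secreted factors, enzymes and noncoding transcripts in turn. Levels are CPM, counts scaled to a common library total, with TMM factors. Per-library values are always given in the order wild type 1, 2 and 4, then knockout 1, 2, 3 and 4.

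Kat6b itself (gene 54169, chr14:21499216-21672478, GRCm38) gave 85.1, 84.1 and 83.5 CPM in wild type and 60.95, 64.1, 66.05 and 62.3 CPM in knockout. Every knockout library lay below every wild type library, and the knockout mean was 75.2% of the wild type mean, but the edgeR test did not pass (log2 fold change -0.41, SE 0.17, adjusted p = 0.0571). An exact permutation test over the 35 ways to divide the 7 libraries gave a two-sided p of 0.0286, the smallest that this design allows, which restates that the groups did not overlap, as in 56.2% of all genes. Kat6b did pass with RLE scaling (adjusted p = 0.0453), DESeq2 (0.0282) and the 7 libraries alone (6.67e-05). The count covers the whole gene, including any part left undeleted, so it does not check the deletion.

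Several features of the libraries precede every result. The wild type libraries were nearly identical to each other although labelled as different embryos of 3 litters, with a pairwise biological coefficient of variation of 0.0172 to 0.0359. Knockout 2 and 3, from different litters, were as close (0.0269), whereas the other knockout pairs lay at 0.115 to 0.165 and pairs of opposite genotype at 0.24 to 0.28. Counts in these close pairs still differed by more than sampling noise (chi-square per degree of freedom 2.1 to 5.94), but that does not show that they came from separate embryos. Each library was kept as its own replicate because the labels name separate embryos. Knockout 4 had the X inactivation transcript Xist at 0.64 CPM and the Y-linked genes Eif2s3y, Ddx3y, Kdm5d and Uty at 101, 79.7, 65.5 and 50.5 CPM, while the other 6 libraries had Xist at 1713 CPM or more and these Y-linked genes near 0. Knockout 4 was therefore the only library of the 7 with a male pattern. Genotype separated along principal component 1 (66.8% of variance), and component 2 (12.2%) set knockout 1 apart. Total counts ran from 18483747 to 31067022 in wild type and from 39413502 to 62819028 in knockout libraries, so every knockout library was deeper. Wild type 1 carries the same litter and embryo numbers, 844 and 5, as a wild type library of the mixed background.

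Of all genes tested, 24.8% rose (3787) and 20.9% fell (3195) in the knockout at an adjusted p under 0.05, which together is 45.8%. The groups did not overlap in 56.2% of genes, and 7.75% were called and changed by more than 2-fold (532 higher, which is 3.49%, and 650 lower, which is 4.26%). With so many calls, a list of genes is described below against these shares. The naming rule took list members only if their groups did not overlap, so non-overlap given below for such members adds no evidence. When the near-identical libraries were summed into 1 each, which leaves 3 knockout samples and 1 wild type sample and takes the spread from all groups, 5 genes passed (0.0313% of 15958) and 3464 had an unadjusted p under 0.05. The calls therefore depend on counting the close libraries as separate replicates. Of the 154 called genes that the naming rule chose, 116 had an unadjusted p under 0.05 in the summed fit, and Cyp2j13 was the named gene that passed it (adjusted p = 0.0415). The mean level in the 2 wild type libraries of the mixed background, on the log2(CPM + 0.1) scale, lay nearer to the knockout mean than to the C57BL/6 wild type mean for 119 of those 154 genes, and for 807 of the 1182 genes (68.3%) called with more than a 2-fold change.

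The litters holding both genotypes were also compared one at a time. Among all genes tested, 85.1% had the same sign of change in litter 843 and litter 929. Each litter holds 1 wild type library and 2 knockout libraries, so the spread in a litter tested alone came from all groups of the series and its single wild type library was assumed to vary like the others. Tested so, they gave 1266 calls (8.3% of genes) in litter 843 and 1772 calls (11.6%) in litter 929, with 1015 called in the same direction in both. No gene differed between the litters in its knockout effect after edgeR's adjustment, and 66 did at an unadjusted p under 0.05, which is 0.432% of genes. That share is so low that the test could hardly call a gene, and it does not show that the litters were alike. Both litters contain one library of each near-identical set, so they are not independent checks of each other. Apln, the ligand of the apelin receptor, had a log2 fold change 3.07 in litter 843 and 3.48 in litter 929. Apoe, the main apolipoprotein of brain glia, had a log2 fold change -2.25 in litter 843 and -2.39 in litter 929. Vegfa, the vascular growth factor, had a log2 fold change 1.95 in litter 843 and 1.11 in litter 929, the smaller value coming from the litter of knockout 4.

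**Figure D1:**
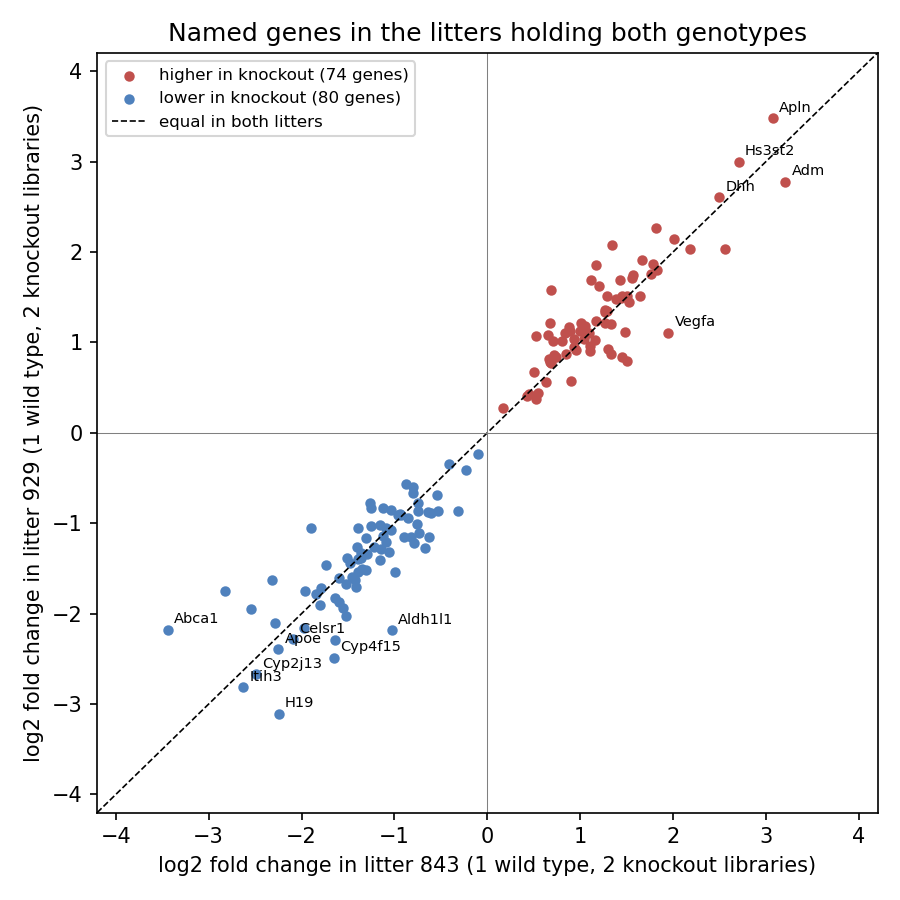
Log2 fold change of knockout against wild type in litter 843 (horizontal axis) and litter 929 (vertical axis) for the 154 named genes called in the comparison of all libraries; red points are the 74 higher and blue points the 80 lower in knockout, and the dashed line marks equal change. All points show the same direction in both litters, which selection nearly ensured, since list members were named only if the groups did not overlap. Vegfa, Abca1, Aldh1l1 and H19 lie away from the line.

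Transporters and channels as a group moved close to the background, with 101 of 372 tested members higher and 72 lower. Because these are bulk samples, fewer cells of a type and less RNA per cell cannot be told apart in this or any later result. Among amino acid transporters 10 of 35 tested members rose and 6 fell. Slc1a5, the glutamine carrier ASCT2, gave 14.99, 15.1 and 13.5 CPM in wild type and 28.4, 32.4, 31.6 and 31.4 CPM in knockout (log2 fold change 1.09, SE 0.12, adjusted p = 1.74e-05). Slc43a1, a carrier of large neutral amino acids, rose from 8.45 ± 0.698 CPM in wild type to 18.2 ± 1.31 CPM in knockout (SD, n = 3 and 4; log2 fold change 1.11, SE 0.13, adjusted p = 2.02e-05). Slc1a1, the neuronal glutamate and cysteine carrier EAAC1, went the other way, with 83.3, 84.95 and 86.4 CPM in wild type and 40.6, 25.6, 25.9 and 39.97 CPM in knockout (log2 fold change -1.36, SE 0.26, adjusted p = 0.000616). All knockout libraries were below all wild type libraries for Slc1a1, as the naming rule required, with knockout 2 and 3 lowest. Another gene covers 31.9% of its exon bases, and its reads could not be separated. Amino acid transporters had 6 higher members without wild type 2. List counts in other fits, here and below, stand beside these counts over all genes. Leaving out wild type 1, 2 or 4 gave 3155, 2767 or 2783 rises (3787 in the main fit). The falls were 2592, 2783 or 2824 (3195 in the main fit). Leaving out 1 knockout library gave 3093 to 3529 rises and 2965 to 3633 falls. With litter as a covariate there were 2886 and 2380. Litter 843 alone gave 740 and 526, and litter 929 alone 1007 and 765.

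Metal transporters were called higher more often than the background: 13 of 35 tested members rose and 5 fell. Tfrc, the transferrin receptor that takes up transferrin-bound iron, gave 168, 185 and 185 CPM in wild type and 347, 369, 384 and 315 CPM in knockout (log2 fold change 0.98, SE 0.12, adjusted p = 2.61e-05). Slc25a37, mitoferrin 1, the carrier of iron into mitochondria, gave 17.2, 16.8 and 16.6 CPM in wild type and 54.3, 42.03, 42.5 and 47.95 CPM in knockout (log2 fold change 1.47, SE 0.20, adjusted p = 5.97e-05). Both transcripts were higher in every knockout library than in any wild type library, as the naming rule required. Slc41a2, a magnesium transporter, rose (log2 fold change 1.07, SE 0.20, adjusted p = 0.000592), while Slc30a10, a manganese exporter, fell (log2 fold change -0.98, SE 0.26, adjusted p = 0.00648) although knockout 1, at 49.4 CPM, stayed close to the wild type range of 52.4 CPM and above. Among inorganic ion cotransporters and exchangers 9 of 39 tested members rose and 11 fell. Slc20a1, a sodium-dependent phosphate carrier, gave 45.2, 44.6 and 41.5 CPM in wild type and 92.6, 92.5, 91.01 and 96.8 CPM in knockout (log2 fold change 1.09, SE 0.14, adjusted p = 3.87e-05). Slc24a3, a sodium, calcium and potassium exchanger, and Slc13a5, a citrate carrier, fell (-1.21 and -1.04 on the log2 scale, adjusted p = 0.000991 and 0.00184). Among mitochondrial carriers 11 of 42 tested members rose and 7 fell. Slc25a25, an ATP-magnesium and phosphate carrier of the mitochondrial membrane, rose (log2 fold change 1.05, SE 0.08, adjusted p = 1.79e-06), and Slc25a34, another member, fell (log2 fold change -1.498, SE 0.45, adjusted p = 0.013). Mitochondrial carriers had 4 lower members without wild type 1.

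Sugar and nucleoside carriers changed in both directions. Among sugar and monocarboxylate transporters 9 of 30 tested members rose and 6 fell. Slc2a12, the glucose transporter GLUT12, gave 17.7, 16.2 and 15.1 CPM in wild type and 6.28, 5.16, 4.88 and 6.65 CPM in knockout (log2 fold change -1.503, SE 0.13, adjusted p = 3.25e-06). Slc2a9, a urate transporter, rose (log2 fold change 1.02, SE 0.24, adjusted p = 0.00287), most in knockout 4 (16.9 CPM) and least in knockout 1 (7.30 CPM). The equilibrative nucleoside transporters Slc29a1 and Slc29a2 and the thiamine transporter Slc19a2 all rose, by log2 fold changes of 1.05, 0.93 and 0.84 (adjusted p = 7.47e-05, 5.76e-05 and 6.39e-05). For organic ion, vitamin and nucleoside transporters 8 of 25 tested members rose and 4 fell. Sugar and monocarboxylate transporters had 5 higher members without wild type 1, wild type 2 or knockout 3.

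ABC transporters included the steepest fall among carriers. Abca1 (chr4:53030789-53159988), which exports cholesterol and phospholipid to apolipoproteins such as APOE, gave 133, 127 and 133 CPM in wild type and 7.33, 15.9, 15.02 and 43.6 CPM in knockout (log2 fold change -2.67, SE 0.38, adjusted p = 7.85e-05). Knockout 1 was lowest and knockout 4 highest of the knockouts, and all lay far under the wild type values. Abcc12, an ABC transporter whose substrate is not established, rose (log2 fold change 1.76, SE 0.26, adjusted p = 0.000113), as did Abcb1b, a multidrug efflux pump (log2 fold change 0.99, SE 0.21, adjusted p = 0.00163). Among all ABC transporters 10 of 35 tested members rose and 5 fell. P-type ATPases were called more often than background in both directions: 13 of 32 tested members rose and 9 fell.

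Water channels and gap junction proteins were called lower more often than the background: 2 of 19 tested members rose and 8 fell, with a median log2 fold change of -0.40 against 0.02 over all genes. Aqp4, the astroglial water channel, gave 91.5, 95.2 and 103 CPM in wild type and 32.8, 36.5, 38.5 and 29.4 CPM in knockout (log2 fold change -1.49, SE 0.14, adjusted p = 6.26e-06). Gjc3, a connexin of glial cells, fell (log2 fold change -1.27, SE 0.36, adjusted p = 0.0104) with knockout 1 at 59.8 CPM and the other knockouts at 30.1 to 33.0 CPM. Calcium, sodium, chloride and TRP channels had 15 of 72 tested members higher and 11 lower, with a median log2 fold change of 0.11. The members that the naming rule took from this list nevertheless all fell. Cacna1g, a low-voltage-activated calcium channel, gave 10.6, 9.84 and 10.4 CPM in wild type and 4.55, 1.84, 1.58 and 2.65 CPM in knockout (log2 fold change -1.96, SE 0.44, adjusted p = 0.00221). This channel list had 9 higher members without wild type 2. Piezo2, a mechanically gated channel, fell (log2 fold change -1.05, SE 0.18, adjusted p = 0.000255), least in knockout 4 (21.8 CPM against 11.5 to 12.7 CPM in the other knockouts). The water channel and gap junction list had 0 higher members without wild type 4, and 1 without wild type 1, wild type 2, knockout 2 or knockout 3.

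**Figure D2:**
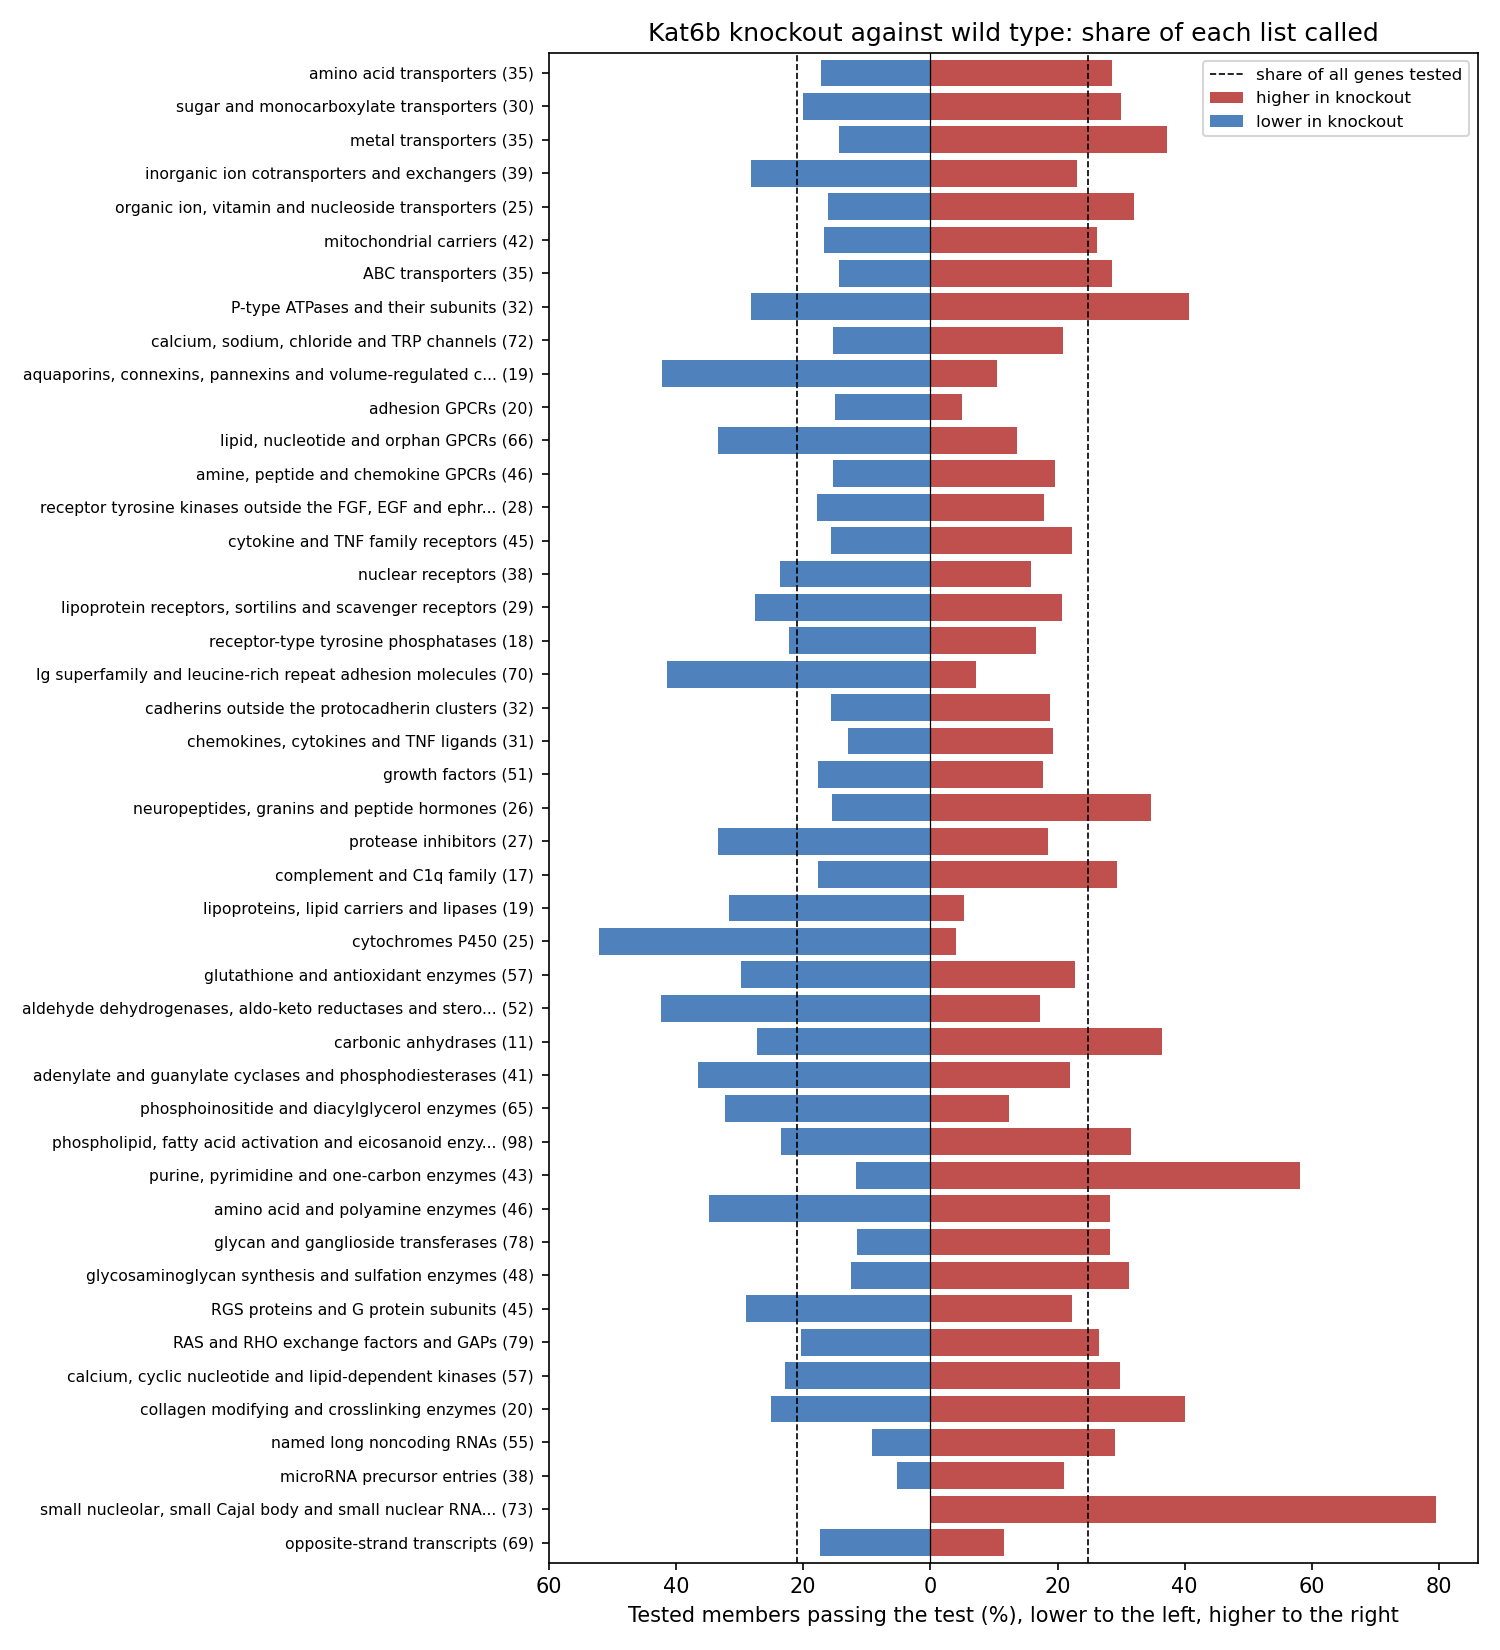
Share of tested members that were higher (red, to the right) or lower (blue, to the left) in knockout for each list with at least 10 tested members, with the number tested in brackets; dashed lines mark the shares over all genes, 24.8% higher and 20.9% lower. Small RNA entries and the purine, pyrimidine and one-carbon enzymes reach furthest to the right, and cytochromes P450 furthest to the left.

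Receptors and adhesion molecules fell more often than they rose, with 60 of 392 tested members higher (15.3%) and 99 lower (25.3%). The clearest list was the Ig superfamily and leucine-rich repeat adhesion molecules, in which 5 of 70 tested members rose and 29 fell. Igsf11, an Ig family homophilic adhesion molecule, gave 108, 102 and 102 CPM in wild type and 30.5, 21.6, 20.6 and 24.8 CPM in knockout (log2 fold change -2.09, SE 0.16, adjusted p = 2.06e-06). Lrrtm2, a leucine-rich repeat partner of neurexins, fell from 42.4 ± 1.197 CPM in wild type to 15.6 ± 2.01 CPM in knockout (log2 fold change -1.44, SE 0.21, adjusted p = 0.000108). Chl1, a relative of the adhesion molecule L1, was an exception and gave 32.1, 34.6 and 34.4 CPM in wild type and 72.7, 114, 117 and 76.5 CPM in knockout (log2 fold change 1.496, SE 0.17, adjusted p = 2.11e-05). With litter as a covariate, 16 members of this list fell rather than 29, and 5 still rose.

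Among G protein-coupled receptors, the lipid, nucleotide and orphan receptors leaned downward: 9 of 66 tested members rose and 22 fell. Gpr17, a receptor of the oligodendrocyte lineage, gave 424, 412 and 411 CPM in wild type and 177, 111, 105 and 152 CPM in knockout (log2 fold change -1.61, SE 0.27, adjusted p = 0.000273). Gpr179, an orphan receptor known from retinal bipolar cells, fell (log2 fold change -1.78, SE 0.24, adjusted p = 5.75e-05). With litter as a covariate, 14 members of this list fell rather than 22. Adrb1 (chr19:56722117-56725150), the beta-1 adrenergic receptor, gave 8.45, 8.83 and 9.28 CPM in wild type and 24.8, 27.4, 29.4 and 32.6 CPM in knockout (log2 fold change 1.69, SE 0.18, adjusted p = 1.36e-05). Ackr3, a scavenging receptor for the chemokine CXCL12, fell from 31.4 ± 1.73 CPM in wild type to 11.03 ± 3.16 CPM in knockout (log2 fold change -1.51, SE 0.34, adjusted p = 0.00226). Ednrb, the endothelin B receptor of radial glia and astrocytes, was among the 10 largest falls in absolute level and gave 1629, 1577 and 1604 CPM in wild type and 798, 739, 759.9 and 1016 CPM in knockout (log2 fold change -0.95, SE 0.12, adjusted p = 3.1e-05).

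Adhesion GPCRs were seldom called (1 of 20 tested members rose and 3 fell), but Celsr1, a planar cell polarity cadherin of that family (chr15:85898758-86034223), gave 130.1, 122 and 126 CPM in wild type and 31.9, 25.5, 24.7 and 27.01 CPM in knockout (log2 fold change -2.21, SE 0.21, adjusted p = 6.58e-06). The knockout libraries did not overlap the wild type range, as the naming rule required, and differed little among themselves. Adgrl2, a latrophilin, rose (log2 fold change 0.90, SE 0.20, adjusted p = 0.00205). Adhesion GPCRs had 2 higher members without knockout 1 or knockout 4. Adhesion GPCRs had 5 lower members without knockout 4.

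Receptor tyrosine kinases included strong falls of abundant members. Ntrk2, the BDNF receptor TRKB, gave 1096, 1097 and 1101 CPM in wild type and 548, 603, 587 and 590.4 CPM in knockout (log2 fold change -0.92, SE 0.12, adjusted p = 3.71e-05). Tyro3, a receptor for the bridging ligands GAS6 and protein S, gave 212, 207 and 206 CPM in wild type and 108, 107, 105 and 117 CPM in knockout (log2 fold change -0.93, SE 0.14, adjusted p = 0.000141), and its relative Axl fell less (log2 fold change -0.59, SE 0.15, adjusted p = 0.00469), with knockout 1 at 34.7 CPM beside the wild type range of 35.1 to 38.1 CPM. Over the list, 5 of 28 tested members rose and 5 fell, close to background. This list had 2 higher members without wild type 2 or wild type 4, and 3 without knockout 1, knockout 2 or knockout 3.

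Cytokine and TNF family receptors gave named rises. Tnfrsf12a, the receptor for the cytokine TWEAK, gave 8.18, 8.86 and 8.47 CPM in wild type and 26.7, 35.6, 38.01 and 43.1 CPM in knockout (log2 fold change 2.08, SE 0.26, adjusted p = 3.19e-05). Tnfrsf10b, the mouse TRAIL receptor, rose (log2 fold change 1.27, SE 0.23, adjusted p = 0.000412), as did Il15ra, the interleukin-15 receptor alpha chain (log2 fold change 1.15, SE 0.20, adjusted p = 0.000395). Megf10, an engulfment receptor of astrocytes, fell (log2 fold change -1.33, SE 0.14, adjusted p = 9.59e-06). Among cytokine and TNF family receptors 10 of 45 tested members rose and 7 fell, and among lipoprotein, sortilin and scavenger receptors 6 of 29 tested members rose and 8 fell. Cytokine and TNF family receptors had 6 higher members without wild type 4. Cytokine and TNF family receptors had 4 lower members without wild type 1 or wild type 4. The lipoprotein receptor list had 3 higher members without wild type 2 or knockout 3.

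Nuclear receptors were called at about the background rate (6 of 38 tested members rose and 9 fell). The orphan receptors Nr5a2 and Esrrb rose from low levels, with knockout means of 3.18 and 7.25 CPM (log2 fold change 1.59, SE 0.43, adjusted p = 0.00698 for Nr5a2). Of the receptor-type phosphatases, Ptpre and Ptprt fell and Ptprj rose, with log2 fold changes of -1.14, -0.71 and 0.79 (adjusted p = 0.00162, 0.00367 and 0.000447).

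**Figure D3:**
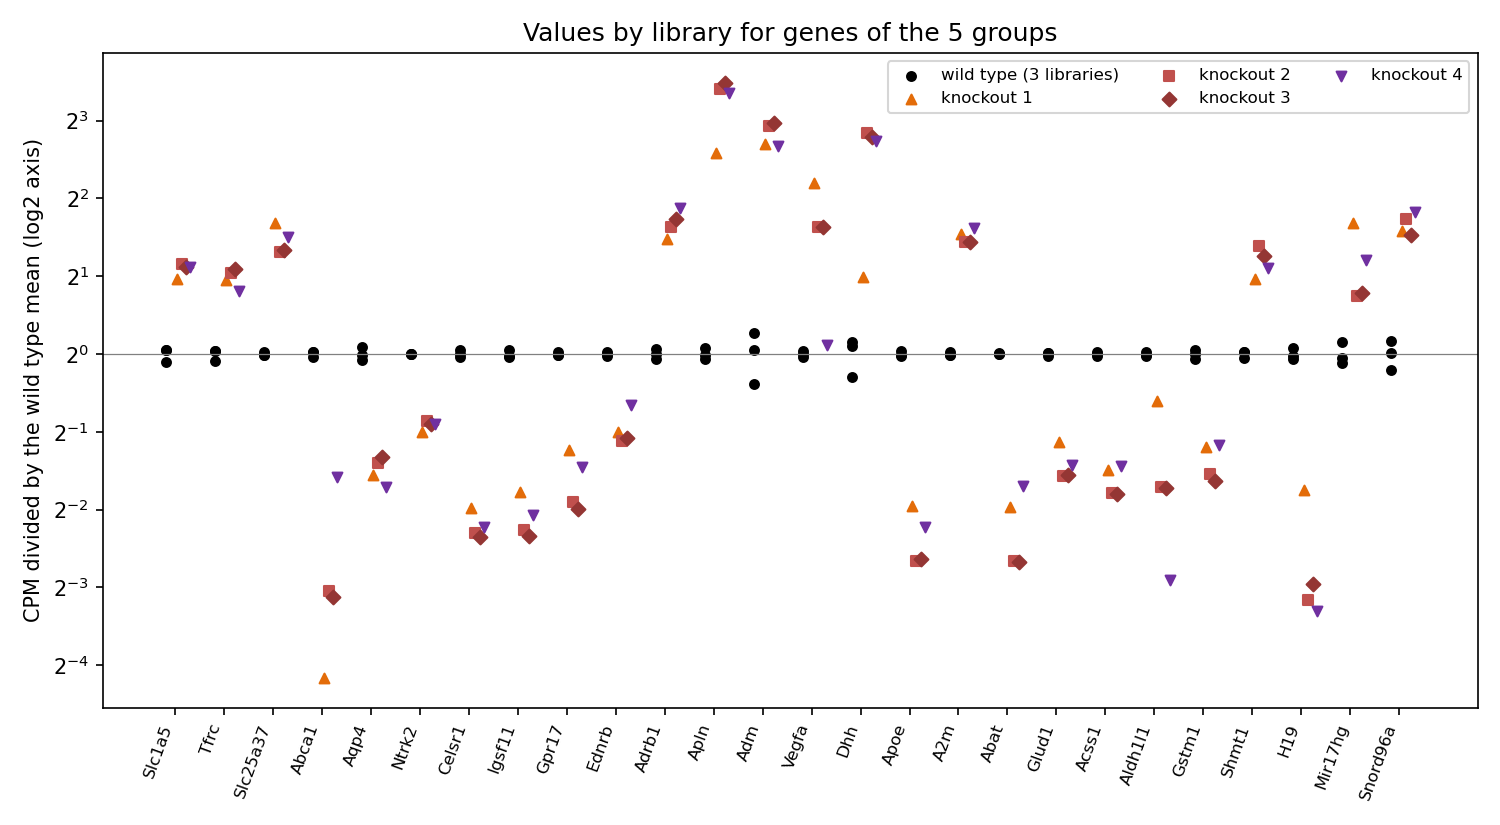
CPM of each library divided by the wild type mean (log2 axis) for 26 genes from the transporters, receptors, secreted factors, enzymes and noncoding transcripts; black circles are the 3 wild type libraries and coloured symbols knockout 1 to 4. Wild type points cluster at 1, knockout 2 and 3 nearly coincide, and knockout 1 or knockout 4 stands apart for Abca1, Dhh, Vegfa, Aldh1l1 and H19.

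Secreted factors were called near the background rate overall (35 of 171 higher, 35 lower). Among neuropeptides, granins and peptide hormones 9 of 26 tested members rose and 4 fell. Apln (chrX:48025146-48034853), an angiogenic peptide, gave 7.91, 7.43 and 7.21 CPM in wild type and 45.01, 79.97, 84.2 and 77.04 CPM in knockout (log2 fold change 3.25, SE 0.24, adjusted p = 1.66e-06). Adm, adrenomedullin, a vasodilator peptide, gave 3.599, 2.28 and 3.09 CPM in wild type and 19.4, 22.8, 23.5 and 19.01 CPM in knockout (log2 fold change 2.85, SE 0.28, adjusted p = 7.3e-06). Stc1, stanniocalcin 1, a calcium and phosphate regulating hormone, rose from 2.33 ± 0.622 CPM in wild type to 8.56 ± 1.78 CPM in knockout (log2 fold change 1.899, SE 0.39, adjusted p = 0.00114). In all 3 genes every knockout library was above every wild type library, as the naming rule required.

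Growth factors moved both ways: 9 of 51 tested members rose and 9 fell. Vegfa gave 72.4, 70.2 and 68.3 CPM in wild type and 324, 219, 218 and 76.4 CPM in knockout (log2 fold change 1.57, SE 0.48, adjusted p = 0.0149), and knockout 4, at 76.4 CPM, lay close to the wild type libraries. Its call was lost in 2 of the fits that left out 1 library (adjusted p = 0.0519 to 0.0538). Dhh, desert hedgehog, gave 4.14, 3.16 and 4.32 CPM in wild type and 7.69, 27.8, 26.7 and 25.8 CPM in knockout (log2 fold change 2.51, SE 0.42, adjusted p = 0.000251), with knockout 1 far below the other knockouts, and another gene covers 25.2% of its exon bases. Angptl4, a secreted inhibitor of lipoprotein lipase, fell from 16.4 ± 0.171 CPM in wild type to 4.26 ± 2.47 CPM in knockout (log2 fold change -1.92, SE 0.47, adjusted p = 0.00373). Chemokines, cytokines and TNF ligands had 6 of 31 tested members higher and 4 lower, with a median log2 fold change of 0.32. The members that the naming rule took from this list nevertheless all fell. Il18, a pro-inflammatory cytokine, fell (log2 fold change -0.94, SE 0.15, adjusted p = 0.000171), as did Ctf1, cardiotrophin 1 (log2 fold change -1.12, SE 0.22, adjusted p = 0.000951). This cytokine list had 2 lower members without wild type 1, 2 or 4 or knockout 2, 3 or 4. Growth factors had 4 higher members without wild type 4, and 5 without wild type 2. Growth factors had 5 lower members without wild type 1 or wild type 2.

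Among lipoproteins, lipid carriers and lipases 1 of 19 tested members rose and 6 fell, and 12 were not called. Apoe (chr7:19696244-19701310) gave 1451, 1389 and 1383 CPM in wild type and 362, 222, 226 and 302 CPM in knockout (log2 fold change -2.34, SE 0.22, adjusted p = 5.05e-06), one of the 10 largest falls in absolute level. Abca1, which loads lipid onto APOE, fell as well, as given above. Ptgds, a prostaglandin D synthase that is secreted as a lipid carrier, fell (log2 fold change -0.76, SE 0.19, adjusted p = 0.00485), and Lpl, lipoprotein lipase, rose from 9.31 ± 1.17 CPM in wild type to 16.6 ± 4.69 CPM in knockout (log2 fold change 0.83, SE 0.20, adjusted p = 0.00315). Leaving out any 1 library left 6 or 7 members of this list lower.

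Protease inhibitors and matrix enzymes gave further opposed changes. Of 27 tested protease inhibitors, 5 rose and 9 fell (33.3%, against 20.9% lower over all genes). A2m, alpha-2-macroglobulin, gave 29.3, 29.4 and 29.99 CPM in wild type and 85.8, 80.2, 79.9 and 91.1 CPM in knockout (log2 fold change 1.51, SE 0.15, adjusted p = 8.89e-06). Timp3, a tissue inhibitor of metalloproteinases, gave 260.5, 258 and 264 CPM in wild type and 172, 104, 104 and 133 CPM in knockout (log2 fold change -1.02, SE 0.20, adjusted p = 0.000972). Itih3, a hyaluronan-binding inhibitor chain, fell from 3.91 ± 0.372 CPM in wild type to 0.631 ± 0.387 CPM in knockout (log2 fold change -2.66, SE 0.35, adjusted p = 4.64e-05). The 2 abundant members A2m and Timp3 thus moved in opposite directions. Among the collagen modifying and crosslinking enzymes, 8 of 20 tested members rose and 5 fell. P4ha2, a collagen prolyl 4-hydroxylase subunit, gave 1.47, 1.47 and 1.42 CPM in wild type and 9.37, 7.95, 7.103 and 4.61 CPM in knockout (log2 fold change 2.31, SE 0.52, adjusted p = 0.00219). Tgm2, tissue transglutaminase, fell (log2 fold change -1.23, SE 0.22, adjusted p = 0.000391). Among complement and C1q family members 5 of 17 tested members rose and 3 fell. Protease inhibitors had 3 higher members without wild type 2, wild type 4 or knockout 2. The complement list had 2 higher members without wild type 2, and 3 without wild type 1, knockout 1 or knockout 4.

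Enzymes were called slightly more often than background, with 206 of 761 higher and 195 lower. Cytochromes P450, the haem monooxygenases of lipid, steroid and foreign compound metabolism, had the largest share of falls of the lists with at least 10 tested members: 1 of 25 tested members rose and 13 fell, with a median log2 fold change of -0.51. Cyp2j13 (chr4:96042660-96077566), of a subfamily of arachidonic acid epoxygenases, gave 4.91, 4.33 and 4.45 CPM in wild type and 0.837, 0.709, 0.592 and 0.783 CPM in knockout (log2 fold change -2.63, SE 0.17, adjusted p = 1.19e-06). Cyp1b1, which oxidises oestrogens and polycyclic aromatic compounds, gave 6.597, 7.27 and 6.18 CPM in wild type and 0.811, 1.21, 1.33 and 2.303 CPM in knockout (log2 fold change -2.21, SE 0.33, adjusted p = 0.000115). Cyp4f15, a fatty acid hydroxylase, fell (log2 fold change -2.001, SE 0.55, adjusted p = 0.00814), with knockout 1 at 6.10 CPM and knockout 2 and 3 at 0.905 and 0.814 CPM. Paralogous P450 genes share sequence, so reads of close relatives may have been assigned to either. Leaving out any 1 library left 12 or 13 members lower, 7 fell in litter 843 alone and 6 in litter 929 alone.

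Aldehyde and retinol metabolism also leaned downward: for aldehyde dehydrogenases, aldo-keto reductases and steroid or retinol dehydrogenases 9 of 52 tested members rose and 22 fell. Aldh1l1, a folate-dependent dehydrogenase used as an astrocyte marker, gave 287, 278 and 279 CPM in wild type and 186, 86.04, 85.5 and 37.5 CPM in knockout (log2 fold change -1.51, SE 0.36, adjusted p = 0.00337). Knockout 1 was nearest to wild type and knockout 4 lowest. Aldh6a1, of valine breakdown, gave 121, 122 and 129 CPM in wild type and 54.7, 37.2, 34.6 and 44.5 CPM in knockout (log2 fold change -1.54, SE 0.20, adjusted p = 4.65e-05). Rdh5, a retinol dehydrogenase, fell (log2 fold change -1.63, SE 0.28, adjusted p = 0.00033), although another gene covers 25.6% of its exon bases.

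Abundant transcripts of glutamate and GABA breakdown and of acetyl-CoA synthesis fell. Abat, GABA transaminase, gave 419, 423 and 419.5 CPM in wild type and 108, 66.5, 66.2 and 129 CPM in knockout (log2 fold change -2.19, SE 0.28, adjusted p = 3.9e-05). Glud1, glutamate dehydrogenase, gave 1323, 1356 and 1357 CPM in wild type and 614, 454, 458 and 499 CPM in knockout (log2 fold change -1.41, SE 0.15, adjusted p = 1.25e-05). Acss1, the mitochondrial acetyl-CoA synthetase, gave 399, 383 and 393 CPM in wild type and 139.8, 113, 112 and 145 CPM in knockout (log2 fold change -1.62, SE 0.24, adjusted p = 0.000106). All 3 fell in each knockout library, as the naming rule required, and knockout 2 and 3 were lowest for all of them. Among amino acid and polyamine enzymes, which include Abat and Glud1 but not Acss1, 13 of 46 tested members rose and 16 fell. Amino acid and polyamine enzymes had 8 higher members without wild type 2 or wild type 4.

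Enzymes of purine, pyrimidine and one-carbon metabolism, which make nucleotides for DNA and RNA, were called higher more often than the background: 25 of 43 tested members rose and 5 fell, with a median log2 fold change of 0.34. Shmt1, cytosolic serine hydroxymethyltransferase, gave 29.3, 29.4 and 27.8 CPM in wild type and 56.3, 75.4, 68.8 and 61.8 CPM in knockout (log2 fold change 1.19, SE 0.14, adjusted p = 2.94e-05). Dctd, dCMP deaminase, gave 14.1, 12.02 and 12.7 CPM in wild type and 24.5, 33.5, 30.2 and 28.6 CPM in knockout (log2 fold change 1.18, SE 0.16, adjusted p = 4.65e-05). The exception with the largest change was Aldh1l1, described above, which belongs to the folate part of the list. Leaving out any 1 library left 23 to 25 members higher, 8 rose in litter 843 alone and 11 in litter 929 alone. Purine, pyrimidine and one-carbon enzymes had 3 lower members without wild type 1.

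Antioxidant enzymes were mixed, and the phosphoinositide and diacylglycerol enzymes leaned downward. Among glutathione and antioxidant enzymes 13 of 57 tested members rose and 17 fell. Gstm1, a glutathione transferase with close paralogues, gave 314, 302 and 289.5 CPM in wild type and 132, 104, 97.2 and 133.7 CPM in knockout (log2 fold change -1.37, SE 0.20, adjusted p = 0.000102). The sestrins Sesn3 and Sesn1, stress-induced inhibitors of mTORC1, fell, Sesn3 from 228 ± 4.62 CPM in wild type to 67.4 ± 5.68 CPM in knockout (log2 fold change -1.76, SE 0.17, adjusted p = 7.06e-06) and Sesn1 by -1.05 on the log2 scale (adjusted p = 0.000115). Among phosphoinositide and diacylglycerol enzymes 8 of 65 tested members rose and 21 fell. Pik3ip1, an inhibitor of PI3 kinase, gave 91.1, 82.8 and 86.1 CPM in wild type and 23.1, 19.5, 21.3 and 29.8 CPM in knockout (log2 fold change -1.89, SE 0.22, adjusted p = 1.98e-05). Adenylate and guanylate cyclases and phosphodiesterases, the list that holds Enpp2, had 9 of 41 tested members higher and 15 lower. Enpp2, autotaxin, the enzyme that makes lysophosphatidic acid, gave 207, 225 and 222 CPM in wild type and 88.03, 61.1, 61.3 and 59.8 CPM in knockout (log2 fold change -1.69, SE 0.23, adjusted p = 5.28e-05). Phospholipid, fatty acid activation and eicosanoid enzymes had 31 of 98 tested members higher and 23 lower. In that list Ptgs2, cyclooxygenase 2, fell from 5.27 ± 0.259 CPM in wild type to 1.51 ± 0.645 CPM in knockout (log2 fold change -1.79, SE 0.32, adjusted p = 0.00042). Pla2g4c of the same list rose (log2 fold change 1.49, SE 0.26, adjusted p = 0.000383). Glutathione and antioxidant enzymes had 7 higher members without wild type 2, and 8 without wild type 1 or knockout 3. Phosphoinositide and diacylglycerol enzymes had 5 higher members without wild type 2, wild type 4 or knockout 2.

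Among carbonic anhydrases 4 of 11 tested members rose and 3 fell. Car12, a membrane-bound carbonic anhydrase, rose from 0.898 ± 0.213 CPM in wild type to 4.33 ± 2.22 CPM in knockout (log2 fold change 2.22, SE 0.63, adjusted p = 0.00944), and the mitochondrial Car5b fell (log2 fold change -1.68, SE 0.17, adjusted p = 9.59e-06). For glycosaminoglycan synthesis and sulfation enzymes 15 of 48 tested members rose and 6 fell. Hs3st2, a heparan sulfate sulfotransferase, gave 0.327, 0.554 and 0.387 CPM in wild type and 2.07, 5.14, 4.93 and 1.38 CPM in knockout (log2 fold change 2.95, SE 0.47, adjusted p = 0.000169). Chst11, a chondroitin sulfotransferase, gave 133.9, 135 and 131 CPM in wild type and 182, 314, 317 and 275 CPM in knockout (log2 fold change 1.03, SE 0.19, adjusted p = 0.000508). Of the knockouts, knockout 4 was lowest for Hs3st2 and knockout 1 for Chst11. Of the glycan and ganglioside transferases, 22 of 78 tested members rose and 9 fell. Mfng, a fringe glycosyltransferase that modifies Notch receptors, fell from 22.4 ± 1.302 CPM in wild type to 9.203 ± 1.08 CPM in knockout (log2 fold change -1.28, SE 0.13, adjusted p = 7.77e-06). For calcium, cyclic nucleotide and lipid-dependent kinases 17 of 57 tested members rose and 13 fell. Mylk, myosin light chain kinase, gave 2.999, 2.87 and 3.38 CPM in wild type and 11.7, 8.73, 7.87 and 15.7 CPM in knockout (log2 fold change 1.83, SE 0.36, adjusted p = 0.000845), and Akap6, a kinase anchor protein, gave 27.1, 26.8 and 26.3 CPM in wild type and 10.9, 10.8, 10.3 and 10.5 CPM in knockout (log2 fold change -1.33, SE 0.14, adjusted p = 1.13e-05). Arhgap29, a GTPase activating protein, rose from 18.6 ± 0.268 CPM in wild type to 50.02 ± 13.3 CPM in knockout (log2 fold change 1.43, SE 0.20, adjusted p = 7.92e-05). Carbonic anhydrases had 2 higher members without wild type 2. Glycosaminoglycan synthesis and sulfation enzymes had 3 lower members without wild type 4. Calcium, cyclic nucleotide and lipid-dependent kinases had 8 higher members without wild type 2 or wild type 4.

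Of 238 tested noncoding entries, 92 were higher (38.7%, against 24.8% over all genes) and 20 lower (8.4%, against 20.9%). Of the 92, 58 were small nucleolar, small Cajal body or small nuclear RNA entries, a list with 79.45% higher. Named long noncoding RNAs had 29.1% higher, the 7 microRNA host transcripts 28.6%, microRNA precursor entries 21.05% and opposite-strand transcripts 11.6%. The high share of rises was thus mainly that of the small RNA list. The box C/D small nucleolar RNAs (snoRNAs) guide methylation of ribosomal RNA and are cut from introns of host genes. The 3 called and most changed members with a mean of at least 2 CPM are shown as examples of that list, from the GENCODE M21 transcripts of GRCm38 with box C (TGATGA) and the last box D (CTGA) in capitals, where present, searched on the transcript strand only.
Snord96a, chr11:48802032-48802112, plus strand: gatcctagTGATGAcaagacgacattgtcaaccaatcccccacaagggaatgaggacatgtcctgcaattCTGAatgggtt
Snord52, chr17:34950952-34951017, minus strand: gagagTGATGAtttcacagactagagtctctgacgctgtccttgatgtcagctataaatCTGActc
Snord22, chr19:8725866-8725991, plus strand: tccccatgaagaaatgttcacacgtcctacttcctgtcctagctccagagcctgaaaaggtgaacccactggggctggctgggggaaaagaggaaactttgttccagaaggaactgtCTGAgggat
These letters for box C followed by box D are in 73 of 97 annotated Snord transcripts (75.3%), and Snord22 does not hold the box C letters.

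All 58 called small RNA entries rose: 58 of 73 tested members rose and 0 fell, with a median log2 fold change of 1.62. At an unadjusted p under 0.05 the number lower was 1, and DESeq2 called 0 lower and 53 higher. Snord96a, hosted by the ribosomal scaffold gene Rack1, gave 1.75, 2.02 and 2.25 CPM in wild type and 5.99, 6.65, 5.796 and 7.099 CPM in knockout (log2 fold change 1.66, SE 0.17, adjusted p = 1e-05). Snord52 gave 1.04, 1.17 and 0.709 CPM in wild type and 2.83, 3.14, 2.76 and 3.21 CPM in knockout (log2 fold change 1.62, SE 0.31, adjusted p = 0.00077). Snord22, hosted by Snhg1, gave 0.763, 1.01 and 1.03 CPM in wild type and 3.35, 3.51, 3.38 and 3.598 CPM in knockout (log2 fold change 1.86, SE 0.24, adjusted p = 4.44e-05). All bases of Snord96a, Snord52 and Snord22 lie in annotated exons of Rack1, 1110038B12Rik and Snhg1, in that order. Knockout and wild type libraries did not overlap for these 3 entries, as the naming rule required. The counts are low, since 17 of the 73 entries reached a mean of 1 CPM and the highest mean was 5.82 CPM. Leaving out 1 library left 40 to 56 entries higher, 43 rose with litter as a covariate, 13 in litter 843 alone and 22 in litter 929 alone. In the edgeR fit with near-identical libraries summed 0 entries passed, and 49 had an unadjusted p under 0.05.

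The genes that hold these small RNAs rose less. For 67 entries a tested host gene was found on the same strand, giving 50 hosts, of which 20 rose and 3 fell, with a median log2 fold change of 0.15. The entries with a host had a median of 1.66, and 65 of the 67 lay above their host. Entries can share reads with same-strand hosts, so reads of a snoRNA and of the intron or exon holding it cannot be told apart. Other short genes had smaller changes: the 41 other tested genes under 150 bases had a median of 0.34, with 9 higher and 2 lower, and genes of 1000 to 4000 bases a median of 0.04.

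**Figure D4:**
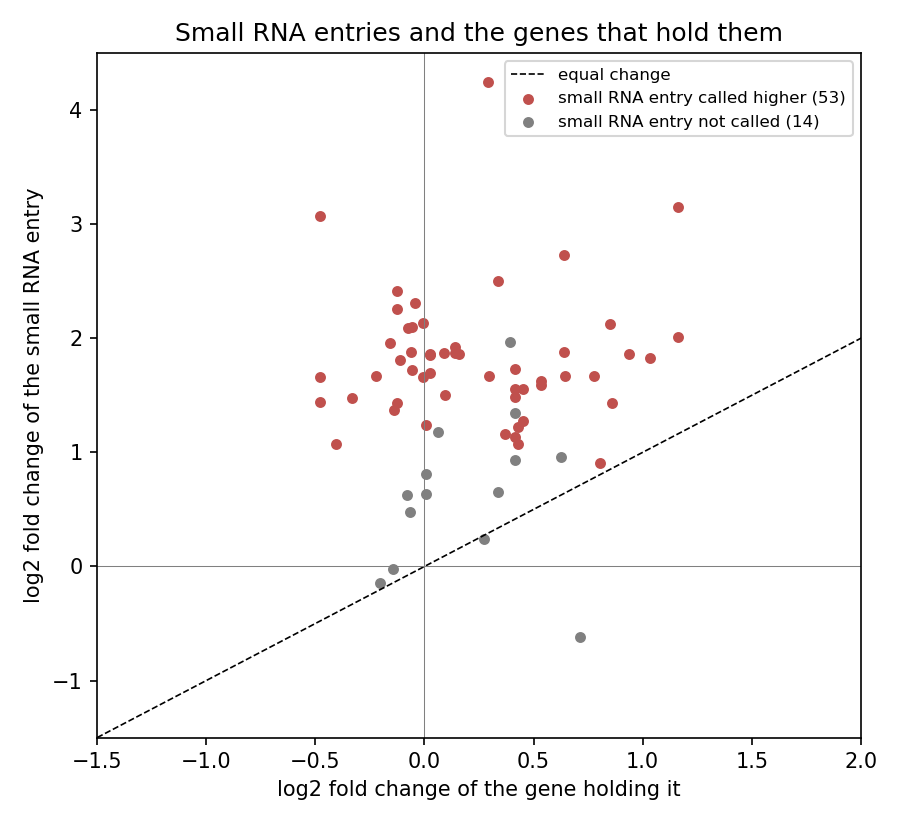
Log2 fold change of each small RNA entry (vertical axis) against that of the gene holding it (horizontal axis) for the 67 entries with a tested host; red points are the 53 entries called higher, grey points the 14 not called, and the dashed line marks equal change. Nearly all points, 65 of 67, lie above the line.

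Summed over all entries of the list, small RNA reads made up 34.3 to 37.7 CPM in the 3 C57BL/6 wild type libraries and 80.3 to 98.2 CPM in the 4 knockout libraries. The 2 wild type libraries of the mixed background held 82.8 and 83.1 CPM, and the 6 overexpressing libraries 55.4 to 97.2 CPM. The C57BL/6 wild type libraries were thus the low group of the series, and the part of strain or library preparation in the difference was not tested. Histone genes of the Hist clusters, most of whose transcripts lack a poly(A) tail, went the other way in sum, at 184 to 187 CPM in wild type and 139 to 155 CPM in knockout. Of 46 tested histone genes, 3 rose and 7 fell (15.2%, against 20.9% lower over all genes), and their median log2 fold change was 0.04, so the lower sum is not a fall of most members.

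**Figure D5:**
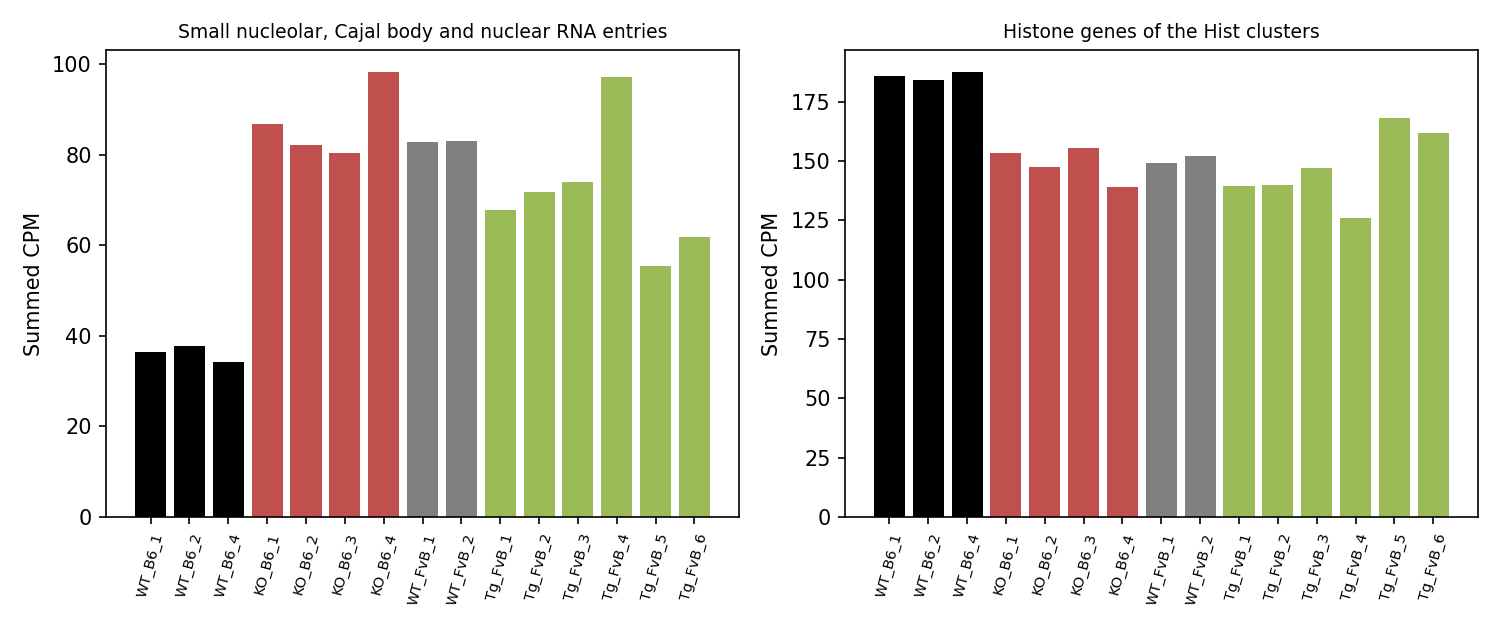
Summed CPM of the small nucleolar, Cajal body and nuclear RNA entries (left) and of histone genes of the Hist clusters (right) in each of the 15 libraries; bars are black for C57BL/6 wild type, red for knockout, grey for wild type and green for overexpressing cells of the mixed background. The 3 black bars are the lowest on the left and the highest on the right.

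Among named long noncoding RNAs 16 of 55 tested members rose and 5 fell. The Snhg genes hold snoRNAs and share reads with them, and of 16 tested 9 rose, 0 fell and 7 were not called, among them Snhg6 and Snhg8 (-0.04 and 0.04 on the log2 scale, adjusted p = 0.835 and 0.744). Snhg1 gave 30.5, 32.6 and 32.1 CPM in wild type and 63.5, 58.9, 60.9 and 59.7 CPM in knockout (log2 fold change 0.94, SE 0.08, adjusted p = 3.12e-06). Snhg4 rose from 6.54 ± 0.16 CPM in wild type to 16.01 ± 1.38 CPM in knockout (log2 fold change 1.29, SE 0.15, adjusted p = 1.75e-05). Snhg15, Snhg17 and Snhg20 had log2 fold changes of 1.05, 1.12 and 1.03 (adjusted p = 7.8e-05, 8.26e-05 and 0.000231). Dancr, a noncoding RNA that holds snoRNAs too, gave 5.02, 3.81 and 3.704 CPM in wild type and 10.4, 9.47, 9.299 and 11.4 CPM in knockout (log2 fold change 1.29, SE 0.17, adjusted p = 5.01e-05), and Gas5, another host of snoRNAs, rose less (log2 fold change 0.34, SE 0.10, adjusted p = 0.0159). Gt(ROSA)26Sor, the transcript of the locus used for mouse transgenes, gave 8.45, 8.51 and 9.599 CPM in wild type and 29.8, 17.8, 19.98 and 21.5 CPM in knockout (log2 fold change 1.33, SE 0.22, adjusted p = 0.000288).

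Fewer long noncoding RNAs fell. H19 (chr7:142575530-142578146), the imprinted noncoding RNA expressed from the maternal allele, gave 21.5, 19.4 and 20.1 CPM in wild type and 6.04, 2.27, 2.61 and 2.06 CPM in knockout (log2 fold change -2.67, SE 0.31, adjusted p = 2.21e-05), with knockout 1 apart from the other knockouts. Trp53cor1, a p53-responsive noncoding RNA, fell from 16.1 ± 0.85 CPM in wild type to 8.19 ± 0.483 CPM in knockout (log2 fold change -0.97, SE 0.22, adjusted p = 0.0024), although other genes cover 44.1% of its exon bases. Pantr1, a noncoding RNA beside the gene of the cortical factor POU3F3, gave 125, 127 and 129.9 CPM in wild type and 79.2, 87.1, 86.2 and 85.6 CPM in knockout (log2 fold change -0.59, SE 0.17, adjusted p = 0.01). The fifth member counted as lower, Dleu7, is annotated as protein coding. Tunar fell at levels under 0.4 CPM (log2 fold change -1.62, SE 0.43, adjusted p = 0.00732). Firre, an X-linked noncoding RNA that shapes nuclear architecture, gave 42.9, 43.9 and 43.2 CPM in wild type and 79.7, 46.1, 48.8 and 59 CPM in knockout (log2 fold change 0.43, SE 0.15, adjusted p = 0.0336), and its knockout 2 value lay near the wild type values.

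MicroRNA host transcripts were few. Mir17hg (chr14:115042879-115046727), the host of the miR-17 to miR-92a cluster, gave 3.93, 4.11 and 4.703 CPM in wild type and 13.6, 7.13, 7.301 and 9.83 CPM in knockout (log2 fold change 1.15, SE 0.21, adjusted p = 0.000466), highest in knockout 1. The cluster's mature microRNAs, which repress targets through the seed at bases 2 to 8, were not measured. Their RefSeq sequences (GRCm38.p6), with the seed in capitals, show what the host encodes, and fall into 4 seed groups among the 6 arms shown.
mmu-miR-17-5p: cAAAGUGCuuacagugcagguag
mmu-miR-20a-5p: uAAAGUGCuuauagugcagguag
mmu-miR-18a-5p: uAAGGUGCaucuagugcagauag
mmu-miR-19a-3p: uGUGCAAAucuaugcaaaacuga
mmu-miR-19b-3p: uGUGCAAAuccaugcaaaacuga
mmu-miR-92a-3p: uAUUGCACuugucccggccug
Mir17hg was called in litter 843 alone (log2 fold change 1.33, adjusted p = 0.0466) and not in litter 929 alone (0.87, adjusted p = 0.126). Mir99ahg, the host of a cluster with miR-99a, let-7c and miR-125b, fell from 2.65 ± 0.496 CPM in wild type to 1.56 ± 0.382 CPM in knockout (log2 fold change -0.77, SE 0.23, adjusted p = 0.0121). Mir9-3hg and Mir124-2hg, hosts of neural microRNAs, were not called, with log2 fold changes of -0.12 and -0.26 (adjusted p = 0.135 and 0.242).

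MicroRNA precursor entries are mostly stretches of longer transcripts in such libraries: 8 of 38 tested members rose and 2 fell. Mir9-2 fell from 2.91 ± 0.363 CPM in wild type to 1.66 ± 0.338 CPM in knockout (log2 fold change -0.83, SE 0.23, adjusted p = 0.00899), and all its bases lie in the exons of a longer noncoding gene. Mir3064 rose (log2 fold change 0.67, SE 0.16, adjusted p = 0.00311), with all its bases in exons of Ddx5. Of the opposite-strand transcripts, 8 of 69 tested members rose and 12 fell. Rab26os gave 1.96, 3.096 and 1.84 CPM in wild type and 8.43, 5.498, 5.85 and 7.43 CPM in knockout (log2 fold change 1.55, SE 0.20, adjusted p = 4.03e-05), and Kcnd3os gave 1.799, 1.86 and 2.29 CPM in wild type and 6.62, 3.94, 4.22 and 3.73 CPM in knockout (log2 fold change 1.21, SE 0.21, adjusted p = 0.000401). Since strand was not recorded, reads of such transcripts and of the genes opposite them cannot be told apart. MicroRNA precursor entries had 3 higher members without wild type 1, and 4 or 5 without wild type 2, wild type 4, knockout 1, knockout 2 or knockout 4. Opposite-strand transcripts had 5 higher members without wild type 2 or wild type 4.

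The largest changes in absolute level involved abundant genes of several kinds. Ccnd1, cyclin D1, gave 571, 564 and 558 CPM in wild type and 1244, 1790, 1781 and 1828 CPM in knockout (log2 fold change 1.56, SE 0.19, adjusted p = 3.3e-05). Ccnd2, cyclin D2, rose from 539 ± 16.1 CPM in wild type to 1066 ± 129 CPM in knockout (log2 fold change 0.98, SE 0.18, adjusted p = 0.000447). Mmp15, a membrane-type metalloproteinase, gave 464, 426 and 435 CPM in wild type and 789, 965, 939.7 and 844 CPM in knockout (log2 fold change 1.002, SE 0.10, adjusted p = 7.3e-06). Igfbp2, a secreted binding protein of insulin-like growth factors, gave 728, 686 and 686 CPM in wild type and 989, 1214, 1145 and 1200 CPM in knockout (log2 fold change 0.70, SE 0.12, adjusted p = 0.000278). Mest, an imprinted gene expressed from the paternal allele, gave 379.7, 381 and 382 CPM in wild type and 849.8, 849, 846 and 715 CPM in knockout (log2 fold change 1.097, SE 0.14, adjusted p = 4.72e-05), lowest of the knockouts in knockout 4. Other genes cover 23.4% of Ccnd1 exon bases and 23.1% of those of Mest.

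Among the falls, Ttyh1, a membrane protein of neural stem cells, gave 946, 933 and 930.1 CPM in wild type and 448, 186, 183 and 302 CPM in knockout (log2 fold change -1.74, SE 0.29, adjusted p = 0.000275). Nnat, neuronatin, an imprinted gene, gave 1091, 996 and 984 CPM in wild type and 537, 396, 377 and 471 CPM in knockout (log2 fold change -1.201, SE 0.21, adjusted p = 0.000406). Marcks, an actin-binding substrate of protein kinase C, gave 2879, 2631 and 2706 CPM in wild type and 2008, 1455, 1547 and 1375 CPM in knockout (log2 fold change -0.78, SE 0.14, adjusted p = 0.000451). Sox4, a neurogenic transcription factor, gave 1032, 887 and 929 CPM in wild type and 423, 375, 355 and 343 CPM in knockout (log2 fold change -1.34, SE 0.21, adjusted p = 0.000133), although another gene covers 54.6% of its exon bases. For each of these genes the knockout libraries lay wholly below the wild type libraries, and 56.2% of all genes did not overlap in either direction.

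Markers of the cultured cells and of other cell types were checked. Of 10 neural stem and progenitor markers, Nes and Hes1 rose and Vim, Pax6, Sox2, Hes5 and Msi1 fell, and Hes5, a Notch target, changed most with 319, 286 and 293 CPM in wild type and 125, 82.9, 81.8 and 89.3 CPM in knockout (log2 fold change -1.66, SE 0.33, adjusted p = 0.001). Another gene covers 31.8% of Hes5 exon bases. Of 9 tested neuronal markers, Tubb3 and Dcx fell (-1.51 and -1.47, adjusted p = 0.000108 and 0.000543) and Snap25 rose (1.01, adjusted p = 0.000381). The 11 microglial markers summed to 1.30 to 1.42 CPM in wild type and 3.21 to 3.56 CPM in knockout, almost all of it Cd68, and Aif1, Trem2, C1qa and C1qb were at 0 in all 7 libraries. The 9 endothelial markers summed to 1.84 to 1.96 CPM and 3.08 to 3.62 CPM, with Cdh5 and Cldn5 at or near 0. Of these, Flt1 (0.105 ± 0.0992 CPM in wild type to 0.557 ± 0.147 CPM in knockout, adjusted p = 0.0266) and Kdr (1.06 ± 0.0905 CPM in wild type to 1.53 ± 0.197 CPM in knockout, adjusted p = 0.0473) rose, and Esam was not called (1.24 on the log2 scale, adjusted p = 0.0624). The 12 fibroblast and pericyte markers summed to 154 to 168 CPM in wild type and 158 to 213 CPM in knockout, mostly Cspg4, which oligodendrocyte progenitors also express. Acta2, smooth muscle actin, rose from 2.22 ± 0.0838 CPM in wild type to 5.09 ± 1.42 CPM in knockout (log2 fold change 1.19, SE 0.38, adjusted p = 0.0202). Twist1 was at 0 in the wild type libraries and knockout 1, at 0.032 CPM in knockout 4 and at 0.851 and 0.740 CPM in knockout 2 and 3. The 7 erythroid markers summed to under 1 CPM in each library. The part of other cell types in the results was not tested.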

How the data were processed

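The deposited values are counts of reads per gene, made by the authors with featureCounts on mm10, with bcl2fastq also named, per the submitters' processing notes. The aligner and annotation: not given in the sources used here. RNA was purified on RNeasy columns and the TruSeq RNA prep kit v2 was used, which does not mark strand, with reads of 66 bp pairs, per the labels' protocols. The 917 entries without a gene name (0.450% to 0.545% of counts) were left out. Deposited gene length (unit other) entered only the length comparison. The total count of named genes per library, 12336303 to 62819028 over the series, sets the precision.

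Counts of all 15 libraries were fitted in 1 edgeR 4.0.16 quasi-likelihood model (R 4.3.3, limma 3.58.1) with a term per group, TMM scaling and filterByExpr with a minimum count of 10. A gene was called at a Benjamini-Hochberg adjusted p under 0.05. The SE is the log2 fold change divided by the square root of F. Values are CPM with SD where given. On simulated data for this comparison with 15261 genes, 76.1% of 2-fold and 93.9% of 4-fold changes were called, and 56.7% of 1.5-fold ones. The simulated fit also called 10 unchanged genes. The simulation changed 66 or 67 genes per fold and drew all libraries as independent replicates. In these data far more genes were called and some libraries were near-identical, so the rates need not hold here. Named genes are Kat6b, the 3 called members of each list most changed among those averaging 2 CPM or more whose groups did not overlap, the 10 largest rises and falls in CPM, and members of the noncoding and marker lists. No gene was counted in 1 genotype only, taken as at least 0.5 CPM in every library of one and at most 0.05 CPM in the other. The members and lists were chosen with earlier results of these data known, and list patterns that caught genes of other functions were corrected after values were seen. Alternatives were RLE scaling, DESeq2 1.42.0, no filter, the 7 libraries alone, litter as covariate, a replicate block, each litter alone, near-identical libraries summed, and each library left out. Coordinates come from RefSeq GRCm38.p6, which matched 25275 of 26263 names (96.2%), and GENCODE M21. Count columns of 2 overexpressing libraries carry wild type headers, and the labels were followed. Results for a few named genes are not reported here.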

Additional observations from a re-analysis of the deposited data

Results flagged for a closer look

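In the 4 knockout libraries, 13 of the 155 named genes had 1 library standing apart from the other 3, with a gap to its nearest neighbour, as a share of the group's range, above the critical value of Dixon's test for 4 samples. Chance alone sets about 1 in 20 groups apart, and genes of the same libraries are not independent. Knockout 1 was the library apart for 8 of them. It was nearer to wild type than the other knockouts for Gjc3 (0.903 of the range), Axl (0.89), Il18 (0.921), Dhh (0.904), Enpp2 (0.946), H19 (0.861) and Ccnd1 (0.92), and farther from wild type for Kcnd3os (0.83). Knockout 4, the library with the male pattern, was apart for the other 5 and nearer to wild type in each: Slc25a34 (0.862), Piezo2 (0.885), Megf10 (0.846), Sesn3 (0.925) and Mest (0.975).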

How the results depend on the processing

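The 3787 rises and 3195 falls became 740 and 526 in litter 843 alone, 1007 and 765 in litter 929 alone, and 0 and 5 with near-identical libraries summed (edgeR, 3464 genes at an unadjusted p under 0.05). Leaving out 1 library gave 2767 to 3529 rises and 2592 to 3633 falls. With litter as a covariate there were 2886 and 2380, with RLE scaling 3499 and 3506, with DESeq2 3607 and 3601, without a filter 3483 and 3166, and with the 7 libraries alone 4074 and 3885. All called genes that could be fitted kept their direction under each alternative, except 3 in litter 843 alone. None of the 155 named genes turned direction. The list members among them were chosen for groups that did not overlap in these libraries, so this was nearly fixed in advance. Kat6b passed with RLE scaling (adjusted p = 0.0453), DESeq2 (0.0282), the 7 libraries alone (6.67e-05) and a replicate block (0.000225). The call was lost on leaving out at least 1 library for 13 named genes (among them Actb, Adgrl3, Akap12, C1ql3, Gjd2, Gng11, Mir22hg, Pcdh8, Rapgef4, Scd2, Tnfsf12 and Vegfa). A replicate block gave 4158 rises and 3657 falls. Libraries with the same number in both genotypes did not deviate together (correlations across genes of -0.0237, -0.0109 and -0.0107), so the numbers do not pair them.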
